A study of Mus musculus with 2 samples.

Results

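The genes described here carry cargo inside the cilium or guard its entrance: 33 of the 25668 genes listed in both libraries have a symbol that starts with Ift, Bbs, Nphp, Tctn or Dync2. They were taken by symbol alone, and comprise 15 Ift, 8 Bbs, 3 Nphp, 3 Tctn and 4 Dync2 genes. RNA was sequenced from mouse organoids, three-dimensional cultures of the epithelium that lines the fallopian tube (oviduct), in 2 libraries. The control library, of wild-type genotype at Trp53, is labelled as normal epithelium and came from a mouse with Cas9 and EGFP at the Gt(ROSA)26Sor locus under the CAG promoter. The Trp53 knockout library is labelled as mutated epithelium in which this tumour suppressor gene was knocked out, and both libraries carry the treatment label conditioned medium. The sources used here do not state the age of the mouse, the route of the knockout, or whether the knockout organoids were 1 clone, a pool or derived from the control's mouse. With 1 library per genotype there is no replicate and no test, so each value below compares these 2 libraries and not the genotypes in general.

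A cilium is a microtubule-based projection that grows from a centriole docked at the cell surface. Its parts are carried outward by kinesin-2 and back by dynein-2, both coupled to trains of the intraflagellar transport complexes IFT-A and IFT-B, while an octameric coat, the BBSome, rides the trains and moves membrane proteins out of the cilium. At the ciliary base the transition zone, built of nephrocystin and tectonic modules, controls what enters and leaves. The same machinery serves the single primary cilium of most cells and the many motile cilia of the multiciliated cells of the oviduct, so RNA from both kinds of cilium is counted together in these bulk libraries.

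Trp53 was 83.2 TPM in the control against 2.42 TPM in the knockout, so the targeted gene went with the labels. TPM, a relative transcript abundance, corrects for the length of a gene and for the depth of a library, which allows levels of different genes to be compared. Whole read numbers could be recovered from the TPM for all 33 cilium genes, and these lay between 180 and 7872 reads in the control library and between 12 and 1788 in the shallower knockout library. Each ratio of TPM below is followed by its exact Clopper-Pearson interval at 95% from those reads, which covers counting error only and not the spread between cultures. At equal TPM a gene had 3.37 times as many reads in the control as in the knockout library.

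Nearly every cilium gene was lower in the knockout library. TPM was below the control in 32 of 33 genes, and the counting interval of the ratio lay wholly below 1 for 31, included 1 for Ift74 and lay above 1 for Bbs4. Over all genes with recovered reads the interval lay wholly below 1 for 50.6% and wholly above 1 for 31.3%. The interval lay wholly below a ratio of 0.5 for 15 of the 33 cilium genes, against 15.7% of all genes with recovered reads. All genes include some with fewer reads than any of the 33. Their wider intervals hold 1 more readily, so these shares are not matched for read number. Summed over the 33 genes, the level was 803 TPM in the control against 429 TPM in the knockout.

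On the scale used for all genes, the difference in log2(TPM + 1), knockout minus control, 29 of the 33 genes had a mean of at least 1 TPM and are called measured. Of these 28 were below the control, as were 60.1% of all measured genes. By at least 2-fold, 14 of the 29 were lower and 0 higher, where 15.3% of all 11228 measured genes were lower and 8.35% higher. The median difference of the 29 was −0.93, beside −0.17 over all measured genes. The filter let in Bbs1 and Bbs7 through their control level, since both were under 1 TPM in the knockout library. Several genes sat close to the 2-fold line, Ift22 at −1.01 and Ift81 at −1.01 just past it and Dync2i2 at −0.92 just short of it. The number at least 2-fold lower moved with scaling: 10 of 29 after the median ratio of all genes was set to 1 and 9 of 29 after quantile normalization, where 12.9% and 11.8% of all measured genes were lower. The calls over all genes were 64.7% lower as deposited, 55.1% after the median ratio and 50.6% after quantile normalization, which moved the median over all measured genes to −0.00903 and 0.03. The median of the cilium genes minus that of all genes was −0.76 as deposited, −0.80 after the median ratio and −0.72 after quantile normalization.

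**Figure D1:**
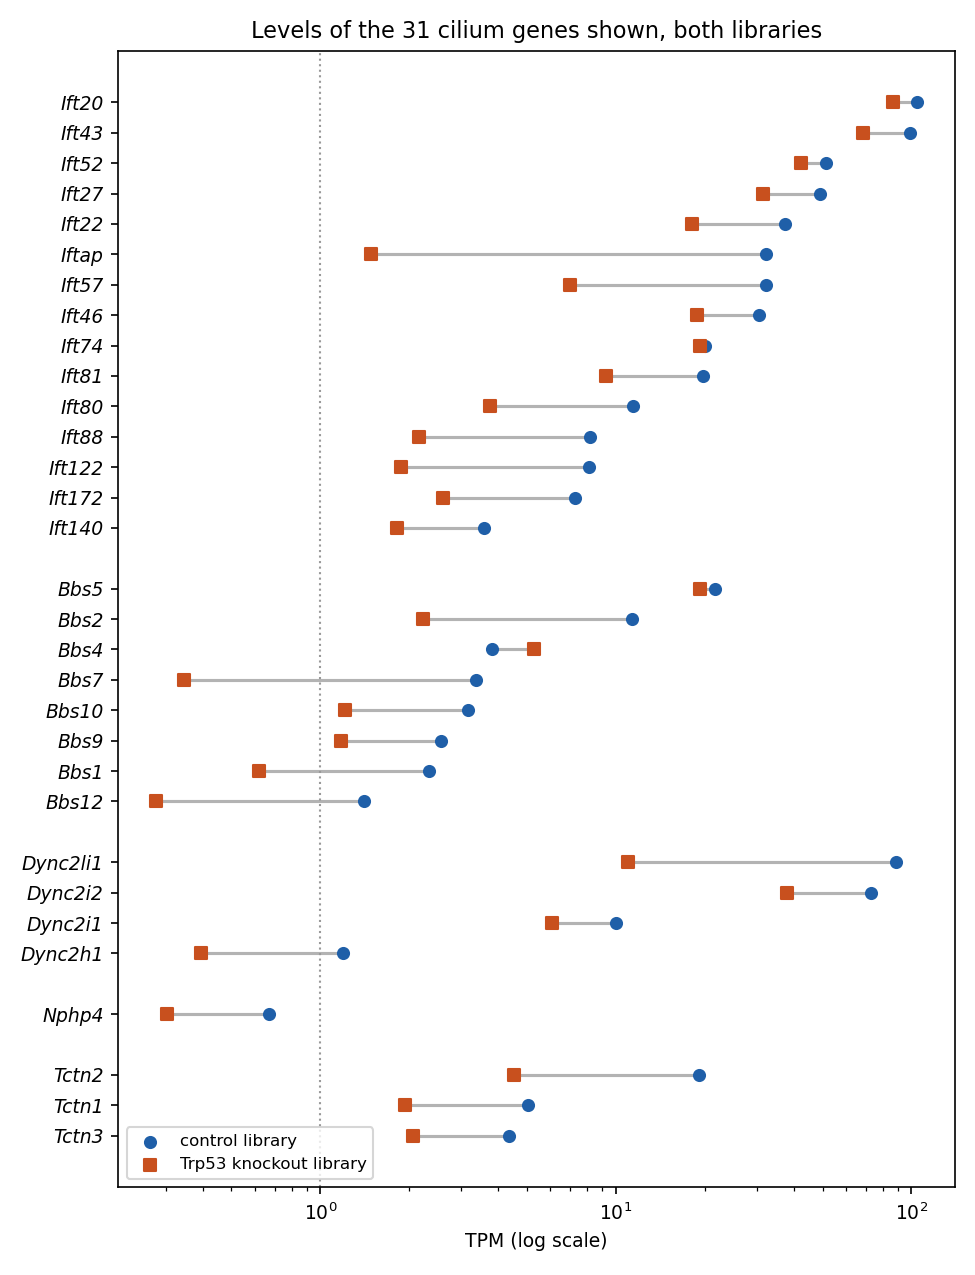
Levels of 31 of the 33 cilium genes in TPM on a log axis, with circles for the control library and squares for the Trp53 knockout library, grouped by symbol prefix and ordered by control level; the dotted line marks 1 TPM. The square lies left of the circle for 30 genes, and Bbs4 is the exception.

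Regulatory factors of the RFX family, which drive ciliary genes in animals, bind the X-box, an imperfect palindrome that lies close to the start of many of them. Because these genes were lower together, their RefSeq promoters (250 bases before to 50 after the start, build GRCm38.p6) were searched on both strands for GTTNCC and GGNAAC separated by 1 to 3 bases, where N is any base and at most 1 of the fixed letters may be off. A promoter was matched for 27 of the 33 genes. A match was present for 10 of these 27 genes (37.0%), beside 5.47% of all 27025 genes with a promoter in the table and 6.60% of measured ones. With all fixed letters in place the shares were 14.8% and 0.903% of all genes. The sequence GTTGCC, which can be the first part of the longer motif, was present for 48.1% of the 27 and 14.1% of all genes. The stretches below, 5′ to 3′ on the strand of the gene, are shown because they hold 5 of the 6 matches that lie wholly before the start (the sixth is that of Nphp4), with the matched bases in capitals.
Ift57 (chr16:49699214-49699266, plus strand): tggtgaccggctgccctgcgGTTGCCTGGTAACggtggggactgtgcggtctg
Tctn3 (chr19:40612339-40612391, minus strand): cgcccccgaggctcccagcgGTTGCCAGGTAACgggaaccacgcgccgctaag
Bbs7 (chr3:36613477-36613530, minus strand): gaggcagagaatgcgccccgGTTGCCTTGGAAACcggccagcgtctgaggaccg
Tctn2 (chr5:124598667-124598720, plus strand): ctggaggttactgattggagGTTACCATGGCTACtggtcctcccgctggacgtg
Ift22 (chr5:136908067-136908120, plus strand): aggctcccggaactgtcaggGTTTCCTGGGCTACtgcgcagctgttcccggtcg

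In Ift57, Tctn3 and Bbs7 every fixed letter was in place, and in Tctn2 and Ift22 a single letter was off. The matches ended 47 bases before the start in Ift57, 48 in Tctn2, 49 in Ift22, 107 in Bbs7 and 127 in Tctn3. Of the 10 genes with a match, 9 were measured, 6 of them at least 2-fold lower, with a median difference of −1.04. The 6 include Bbs1, whose value is that median, and Bbs7. Both passed the filter through the control alone, which fixed their direction, and no gene without a match did so. Of the 17 without a match, 15 were measured, 4 of them at least 2-fold lower, with a median of −0.70. Ift80, Ift81, Ift122 and Dync2li1, all at least 2-fold lower, had no matched promoter and are in neither set, so the comparison does not cover them. Both sets spanned a wide range, the first from −2.05 in Ift57 to 0.39 in Bbs4 and the second from −3.75 in Iftap to −0.0601 in Ift74, so genes with and without a match overlapped. A match describes the letters in this window and says nothing of binding.

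IFT-B, the larger train complex that drives outward transport, was unevenly lower. Of its 11 genes with the Ift prefix 6 were at least 2-fold lower. Ift57, a peripheral subunit, was 32.1 TPM in the control against 6.97 TPM in the knockout, a ratio of 0.217 (0.195 to 0.242), the lowest of these 11. Ift88, the core subunit whose mutation causes polycystic kidneys in mice, was 8.19 and 2.16 TPM, a ratio of 0.264 (0.217 to 0.318). The peripheral subunits Ift80, at 11.4 and 3.74 TPM, and Ift172, the largest IFT-B protein, at 7.28 and 2.60 TPM, had ratios of 0.329 (0.290 to 0.371) and 0.357 (0.312 to 0.407). Among the genes of the Ift prefix, the interval was wholly below 0.5 for 3 of 4 peripheral subunits (Ift20, Ift57, Ift80 and Ift172) and 1 of 7 core subunits. The peripheral subunit genes of other names, Cluap1 at 0.483 (0.448 to 0.520) and Traf3ip1 at 0.783 (0.714 to 0.859), were not below it. Nor were the core genes Hspb11 at 0.489 (0.396 to 0.599), Ttc26 at 0.526 (0.444 to 0.621), Ttc30a1 at 0.508 (0.426 to 0.602) and Ttc30b at 0.657 (0.612 to 0.706). For the Ift prefix the ratio of summed TPM was nearly the same, 0.647 over the 4 peripheral and 0.653 over the 7 core subunits.

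The remaining IFT-B genes of the Ift prefix stood nearer to the control. Ift81, whose product binds tubulin with that of Ift74, was 19.7 and 9.25 TPM, and Ift22, which encodes a Rab-like GTPase, was 37.3 and 18.0 TPM. Ift46 was 30.4 and 18.7 TPM, Ift27, a second Rab-like GTPase that links the trains to BBSome exit, was 49.2 and 31.5 TPM, and Ift52 was 51.6 and 42.3 TPM. Ift20, which also works at the Golgi, was the highest of all 33 genes in both libraries, at 104 and 86.9 TPM, a ratio of 0.834 (0.792 to 0.879). Ift74 differed least, at 20.05 and 19.2 TPM, a ratio of 0.957 (0.887 to 1.03), and it was above the control after scaling by the median ratio or by quantiles. Some genes of this complex differed from each other. The interval of Ift81, 0.469 (0.428 to 0.514), did not overlap that of its partner Ift74. The interval of Ift57 likewise did not overlap that of Ift20, another peripheral subunit. These pairs were picked by their values, and other IFT-B genes did overlap. The interval of Ift27, 0.640 (0.588 to 0.696), overlapped that of Hspb11, 0.489 (0.396 to 0.599), and that of Ift20 overlapped that of Traf3ip1.

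IFT-A, the complex of return transport and of membrane protein entry, showed the same unevenness. Ift122 was 8.09 and 1.87 TPM, a ratio of 0.231 (0.196 to 0.272). Ift140 was 3.58 and 1.82 TPM, a ratio of 0.508 (0.443 to 0.581). Ift43, the second highest of the 33 genes in both libraries, was 98.6 and 68.6 TPM, a ratio of 0.696 (0.651 to 0.745). The 3 intervals do not overlap each other, so the order of these 3 ratios exceeds counting error. Other IFT-A genes stood between or beside them. Wdr19 had a ratio of 0.370 (0.307 to 0.444) and Wdr35 one of 0.412 (0.339 to 0.497), which overlaps that of Ift140. Both intervals lay wholly below 0.5. Ttc21b had a ratio of 0.753 (0.666 to 0.8502), which overlaps that of Ift43.

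Iftap, which encodes an intraflagellar transport associated protein, had the lowest ratio of the 33. It was 32.3 TPM from 5647 reads in the control and 1.48 TPM from 77 reads in the knockout, a ratio of 0.0459 (0.0362 to 0.0574). In order of level it went from rank 9 of 33 in the control to rank 25 in the knockout library. In GENCODE M21 its exons share 80 bases with Rag1 on the same strand and 208 bases with Rag2 on the opposite strand, and both of these genes are listed at 0 in both libraries. Its difference of −3.75 stood at percentile 1.17 of the differences of all measured genes.

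All 4 Dync2 genes, which encode subunits particular to dynein-2, the return motor, were below the control. Dync2li1, the light intermediate chain, was 88.3 TPM from 7118 reads in the control and 10.98 TPM from 263 reads in the knockout, a ratio of 0.124 (0.110 to 0.141), and went from rank 3 to rank 11 of the 33. The heavy chain gene Dync2h1, whose product holds the motor domain, was low in both, at 1.19 and 0.395 TPM, a ratio of 0.332 (0.269 to 0.406), and with a mean under 1 TPM it is not among the measured genes. The intermediate chain genes were nearer to the control. Dync2i2 was 72.9 and 38.0 TPM, a ratio of 0.521 (0.490 to 0.554), and Dync2i1 was 10.03 and 6.06 TPM, a ratio of 0.604 (0.543 to 0.671). The light intermediate chain thus exceeded both intermediate chains in the control library and lay below Dync2i2 in the knockout library.

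**Figure D2:**
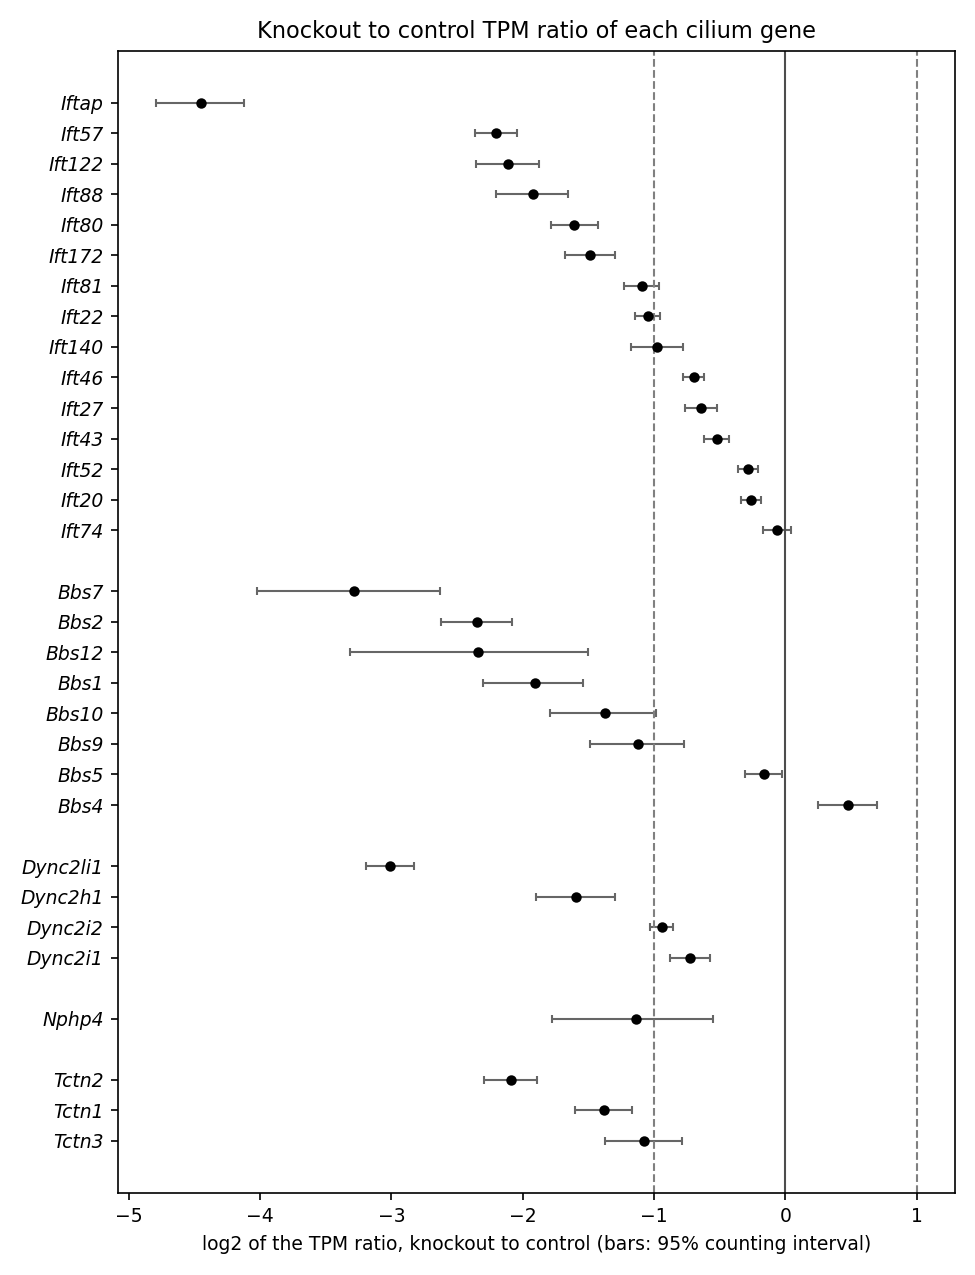
The log2 ratio of TPM, knockout to control, for 31 of the 33 cilium genes, with bars for the 95% counting interval, a solid line at no difference and dashed lines at 2-fold. Iftap, Bbs7 and Dync2li1 lie farthest to the left, the bar of Ift74 crosses the solid line and Bbs4 lies to its right.

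Of the 6 BBSome genes of the Bbs prefix, 5 were below the control and 1, Bbs4, was above it. Bbs7, of the BBSome core, was 3.36 TPM in the control against 0.345 TPM, from 19 reads, in the knockout, a ratio of 0.103 (0.0614 to 0.162). Its core partner Bbs2 was 11.4 and 2.23 TPM, a ratio of 0.197 (0.162 to 0.236), and Bbs1, the subunit that binds the GTPase Arl6, was 2.33 and 0.620 TPM, a ratio of 0.266 (0.203 to 0.344). Those are the BBSome genes of the Bbs prefix with an interval wholly below 0.5. Bbs9, also of the core, was 2.56 and 1.18 TPM, a ratio of 0.460 (0.357 to 0.585).

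Of the BBSome genes of the Bbs prefix, Bbs5 and Bbs4 stood nearest to or above the control. Bbs5, which binds phosphoinositides, was 21.6 and 19.3 TPM, a ratio of 0.892 (0.808 to 0.984), and it was above the control after scaling by the median ratio but not after quantile normalization. Bbs4, which also gathers at the satellites around the centrosome, was 3.80 and 5.28 TPM, a ratio of 1.39 (1.19 to 1.62), the only one of the 33 above the control as deposited. Bbs4 shares 194 exon bases with Adpgk on the opposite strand, at 16.8 and 9.19 TPM, so without the strand setting of the counting its reads cannot be told from those of Adpgk there. Bbs5 was the highest Bbs gene in both libraries.

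The chaperonin-like genes Bbs10 and Bbs12, whose products help assemble the BBSome core, were both below the control. Mkks, which acts with them, went the other way, at 10.1 and 18.4 TPM, a ratio of 1.82 (1.69 to 1.97). Unlike Bbs10 and Bbs12, Mkks lies on chromosome 2, whose measured genes had a median difference of 0.20. The part of the chromosome in this was not tested. Bbs10 was 3.15 and 1.22 TPM, a ratio of 0.386 (0.289 to 0.505). Bbs12 was 1.41 and 0.278 TPM from 204 and 12 reads, a ratio of 0.198 (0.101 to 0.353), with a mean under 1 TPM. Bbs12 shares 32 exon bases with Cetn4 on the opposite strand, at 8.76 and 0.519 TPM.

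At the transition zone the 3 tectonic genes were lower. Tctn2 was 19.2 and 4.51 TPM, a ratio of 0.235 (0.204 to 0.270). Tctn1 was 5.04 and 1.94 TPM, a ratio of 0.384 (0.329 to 0.445), and Tctn3 was 4.34 and 2.06 TPM, a ratio of 0.475 (0.386 to 0.579). Tctn2 was the highest tectonic gene in both libraries. Tctn1 shares 1574 exon bases with Hvcn1 on the opposite strand, at 1.44 and 0.619 TPM, so its values are uncertain by that overlap.

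Nphp4, which encodes a nephrocystin of the transition zone, was 0.668 and 0.304 TPM from 200 and 27 reads, a ratio of 0.454 (0.292 to 0.681), with a mean under 1 TPM. Over all 33 genes the order of levels was much the same in both libraries (Spearman's rho 0.903 across genes, beside 0.844 over all measured genes). The control level and the difference were almost unrelated across the 29 measured genes (rho 0.112), where genes share 2 libraries and are not independent replicates.

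Of 8 genes for RFX and related ciliary factors, 5 were measured. Foxj1 alone was at least 2-fold lower and 0 were higher, and the median was −0.21, which turned to 0.0824 after quantile normalization. Foxj1, the master factor of motile cilia, was 116 TPM in the control against 52.7 TPM in the knockout, a ratio of 0.455 (0.436 to 0.475). Rfx2 was 2.15 and 4.07 TPM, a ratio of 1.89 (1.61 to 2.22), and Rfx5, better known for class II antigen presentation genes, was 4.86 and 3.14 TPM. Rfx3, not measured with a mean of 0.974 TPM, was 1.32 and 0.629 TPM, a ratio of 0.477 (0.385 to 0.586).

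Genes of the same complexes whose symbols lie outside the 5 prefixes were mostly below the control as deposited, 48 of 54 measured in 4 lists, with 6 above it. Of 13 measured genes among other intraflagellar transport and kinesin-2 genes, 2 were lower by at least 2-fold (15.4%, near the 15.3% of all measured genes) and 0 higher, while the median was −0.69. Kifap3, the kinesin-2 adaptor, was 15.1 and 6.24 TPM, and Cluap1, of IFT-B, was 44.7 and 21.6 TPM, while Wdr35, of IFT-A, at 5.55 and 2.28 TPM, stood just short of that line. Of 7 other dynein-2 subunits, 2 were lower and 0 higher (median −0.62). The filter let in 1 of these, Dynlrb2, through its control level alone, which fixed its direction. Dynlrb2, a roadblock light chain, was 5.68 TPM in the control and is listed at 0 in the knockout. This is at least 17.7-fold lower against a floor of 3 reads in the knockout library. Other light chain genes of this list were mixed. Dynll1, Dynll2 and Dynlrb1, which cytoplasmic dynein also uses, had differences from −0.0406 to 0.24. Dynlt3 had one of −0.62, a ratio of 0.647 (0.622 to 0.674), and Dynlt1b one of −0.92. Dynlt2b was 53.0 and 23.2 TPM and Dynlt1b, which has near-identical copies that can share reads, was 152 and 79.8 TPM.

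Of 13 other BBSome, chaperonin and Arl genes, 3 were lower by at least 2-fold and 0 higher (median −0.50). Ttc8, which encodes the BBSome subunit BBS8, was 10.01 and 1.55 TPM, a ratio of 0.155 (0.120 to 0.198). Lztfl1, a regulator of BBSome entry, was 17.7 and 5.80 TPM, and Arl6, the GTPase that recruits the BBSome to membranes, was 28.3 and 11.3 TPM. Of 21 measured genes among other transition zone and inversin genes, 7 were lower and 0 higher (median −0.73). Of the 7, 2 were under 1 TPM in the knockout and passed the filter through the control alone. This fixed their direction. Cc2d2a, a core protein of the same module as the tectonics, was 4.51 TPM in the control against 0.0505 TPM, from 5 reads, in the knockout, a ratio of 0.0112 (0.00363 to 0.0262). Of its module partners, Tmem231 was 15.8 and 2.92 TPM, and Tmem17 was 14.0 and 3.53 TPM. Pooled over these 4 lists, 14 of 54 measured genes (25.9%) were lower by at least 2-fold and 0 higher (median −0.71). The 14 include the genes that the filter let in through the control alone.

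Genes for the start of ciliogenesis, such as the distal appendages that dock the centriole, had a median of 0.03, with 1 of 15 measured genes at least 2-fold lower and 0 higher. This median changed sign with no filter on low values (−0.0247), without mitochondrially encoded and the highest genes (−0.00894) and without chromosomes 2 and 4 (−0.0797). C2cd3, needed for the distal end of the centriole, was 5.47 and 1.92 TPM, Fbf1 of the distal appendages was 9.79 and 5.27 TPM, and Rab3ip, which activates Rab8, was 33.1 and 19.2 TPM. Hedgehog signalling passes through the primary cilium, and of 7 measured Hedgehog genes 1 was lower and 0 higher, and the median was −0.39, which turned to 0.0436 after quantile normalization. Evc2, which transmits the signal at the ciliary base, was 4.57 TPM in the control and is listed at 0 in the knockout, at least 110-fold lower against the same floor. It passed the filter through the control alone, which fixed its direction. Smo, the signal transducer in the ciliary membrane, was 14.7 and 7.45 TPM, and Gas1, a co-receptor, was 1.39 and 3.51 TPM. The target gene Gli1 stood at 0.00398 TPM in the control and is listed at 0 in the knockout.

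**Figure D3:**
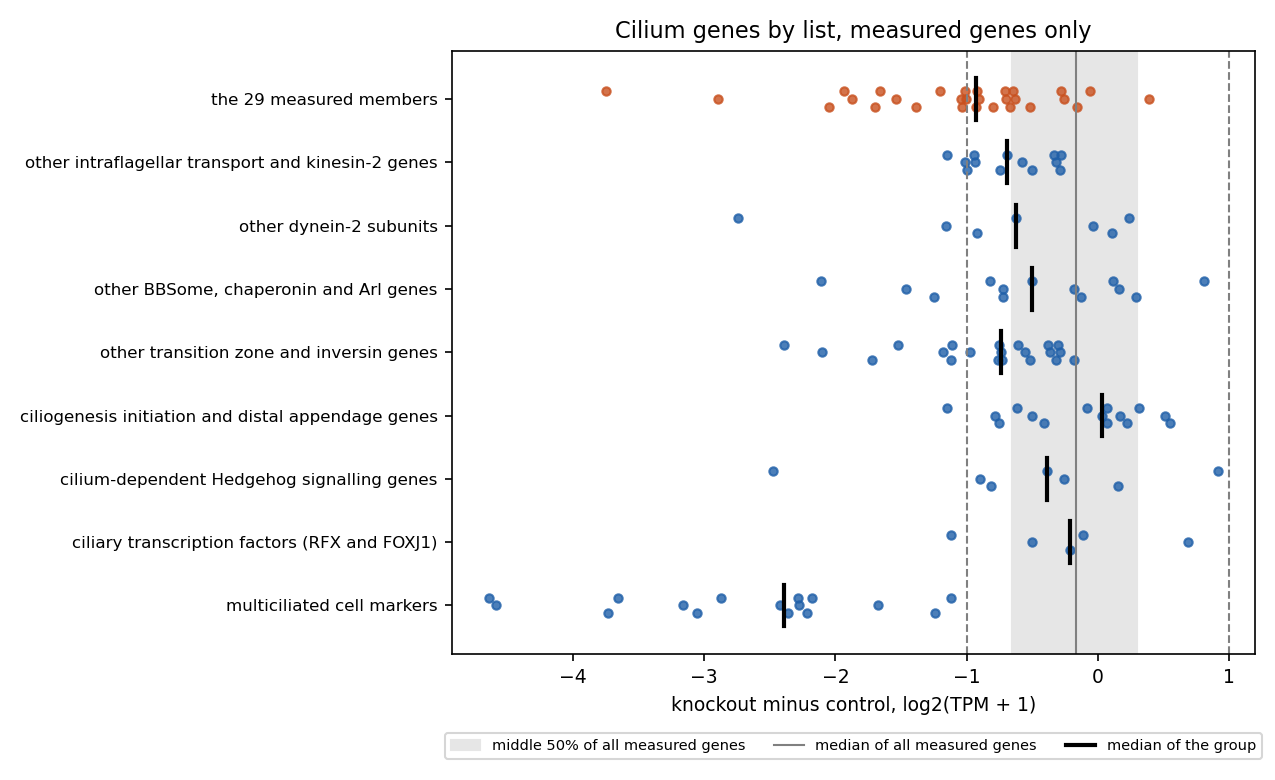
Differences in log2(TPM + 1), knockout minus control, of measured genes only, for the cilium genes chosen by symbol (top), 7 lists of other cilium genes and the multiciliated cell markers; black bars are medians, the grey band holds the middle 50% of all measured genes and dashed lines mark 2-fold. The medians run from −2.39 for the multiciliated markers and −0.93 for the genes chosen by symbol to 0.03 for ciliogenesis initiation.

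Markers of multiciliated cells moved with these genes. All 16 measured markers were at least 2-fold lower, but 10 of them were under 1 TPM in the knockout and so passed the filter through the control alone, which fixed their direction. The summed level of the 28 listed was 522 TPM in the control against 95.1 TPM in the knockout. In the knockout library 15 of the 28 were listed at 0, among them Deup1, Gmnc, Tppp3, Dnah5, Hydin and Tekt1, and 0 were in the control. However, 9 of the 28 were under 1 TPM in the control, such as Dnah5 at 0.0720 and Hydin at 0.0277 TPM. The knockout library was shallower, so a 0 there sets only a bound. Against a floor of 3 reads Hydin was at least 2.58-fold lower, and Tekt1 at least 68.0-fold lower. Foxj1, above, is also among these markers and, at 116 and 52.7 TPM, was the largest part of each summed level. Ccno, needed to amplify centrioles, was 27.4 and 0.181 TPM, Mlf1 was 33.3 and 0.372 TPM and Tppp3 was 12.3 TPM and listed at 0. Their part in the differences of the cilium genes was not tested. In bulk samples fewer ciliated cells and less ciliary RNA per cell cannot be told apart.

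Other cell types also shifted between the libraries. Markers of dividing cells, in which the primary cilium is taken down before mitosis, were at least 2-fold higher for 7 of 10 and lower for 0, with sums of 322 and 780 TPM. Basal and squamous markers were higher for 8 of 9 measured, of which 5 were under 1 TPM in the control and passed the filter through the knockout alone, with sums of 150 and 5304 TPM. Secretory markers were lower for 4 of 7 and higher for 0, with sums of 1689 and 1922 TPM. Krt7, at 877 and 1167 TPM, was the largest part of each sum. Of the 4 lower, 2 were under 1 TPM in the knockout and passed the filter through the control alone, which fixed their direction. Those lower include Ovgp1, the oviduct glycoprotein, at 7.44 and 0.192 TPM and Wt1 at 35.3 and 7.85 TPM, while Pax8 was 44.8 and 46.0 TPM and Epcam 713 and 697 TPM. Endothelial markers summed to 0.0829 and 0.0269 TPM, and of fibroblast and muscle markers 10 of 11 were under 1 TPM in both, the exception being Acta2 at 1.07 and 17.8 TPM. Of 8 immune markers, the defining gene Ptprc was at 0.0886 and 0.0110 TPM, and their sums were 291 and 16.4 TPM. Lyz2 made up most of the first, at 257 TPM and listed at 0 in the knockout, and Cd68, at 25.5 and 15.97 TPM, nearly all of the second, while Csf1r was 8.78 and 0.420 TPM. The part of these shifts in the cilium results was not tested.

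The cilium genes were also described by chromosome. Chromosomes 2 and 4 hold 7 of the 33, and genes on these chromosomes were higher as a whole in the knockout library: the median difference was 0.20 over 903 measured genes of chromosome 2 and 0.62 over 680 of chromosome 4, beside −0.24 over 9597 genes of the other named chromosomes. Among the 7, Bbs5, Iftap, Ift52 and Dync2i2 lie on chromosome 2 and Ift74 and Nphp4 on chromosome 4. The 6 measured ones had a median of −0.60 with 1, Iftap, at least 2-fold lower, where 8.65% of all measured genes of these chromosomes were. The 23 measured on other chromosomes had a median of −1.01 with 13 lower, where 16.3% of all measured genes there were. The 13 include Bbs1 and Bbs7, which the filter let in through the control alone. The groups overlapped: the lowest difference of all, in Iftap, lies on chromosome 2.

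**Figure D4:**
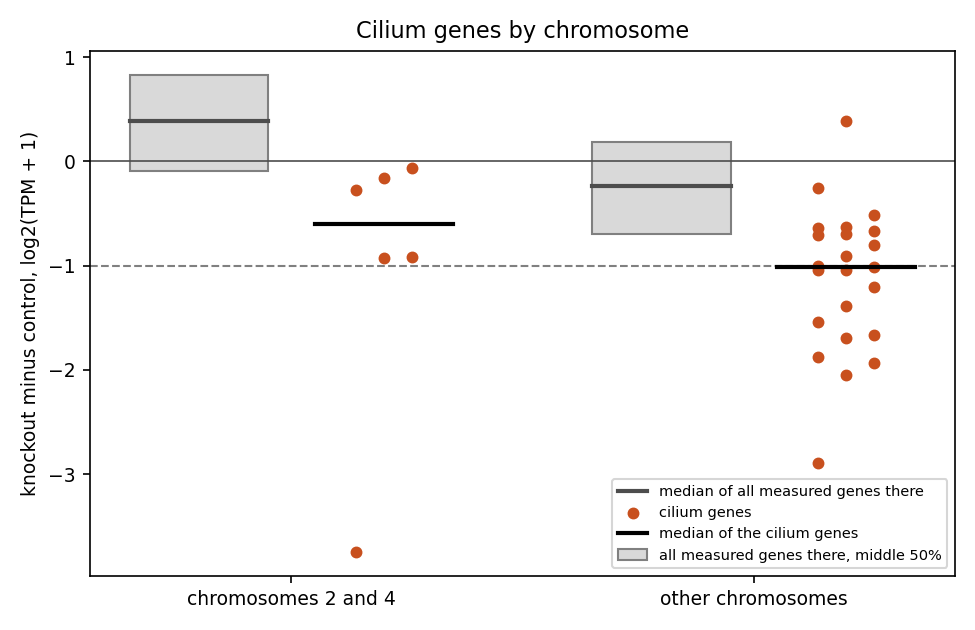
Differences in log2(TPM + 1), knockout minus control, for measured cilium genes (points, black bar at the median) beside the middle 50% and median of all measured genes (grey box and line) on chromosomes 2 and 4 and on the other chromosomes; the dashed line marks 2-fold lower. The cilium medians of −0.60 and −1.01 lie below those of all genes there, 0.38 and −0.24.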

How the data were processed

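The authors deposited TPM, 1 value per gene symbol and library, on genome build GRCm39 per the submitters' processing notes. Per the labels' protocols, strand-preserving libraries were sequenced as 50 base paired-end reads. The aligner, the counting tool and its strand setting are not stated there (not given in the sources used here), nor is the annotation. TPM was used as deposited, since no test between single libraries is possible. A gene was called at a 2-fold difference in log2(TPM + 1) with a mean of at least 1 TPM. The pseudocount of 1 understates the change of low genes.

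Reads were recovered by searching, for each gene above 0 in both libraries, the length up to 20000 bases that gives whole reads within 0.0002 in both (plus 1e-07 of the read number). The TPM of 1 read at 1000 bases, 0.0168 (control) and 0.0565 (knockout), came from low genes with GENCODE M21 transcript lengths. Such a length existed for 98.2% of 13626 genes and for all 33 cilium genes, and for 1 to 3 of the 33 with 10 arbitrary constants. For 7 of the 33 a multiple of the smallest length, nearest to GENCODE M21, was taken. A read may stand for a read pair. Floors of 3 reads use GENCODE M21 lengths. Without molecular identifiers, reads are not separate molecules, so intervals and floors cover counting error only.

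Chromosomes, exon overlaps and promoters come from GRCm38 annotation, and the coordinates printed are those of GRCm38.p6, not of the deposited values. Some symbols were matched by hand to older or newer names (Dync2i1 to Wdr60, Dync2i2 to Wdr34, Iftap to B230118H07Rik, Dynlt2b to Tctex1d2, Ccp110 and 2700049A03Rik). The cilium genes, lists, markers and tests were chosen with earlier results of these data known. Of the 33 cilium genes, 2 are not reported by name here. Named genes are the other 31, the 3 largest differences of each other cilium list, and Trp53. Dynll1, Dynll2, Dynlrb1, Dynlt3, Gli1, Mkks, Ttc21b, Wdr19, Traf3ip1, Hspb11, Ttc26, Ttc30a1, Ttc30b, Rfx3, the pairs compared and the marker genes named were chosen after their values were seen. Calls, read recovery and the motif search were tested on simulated data. Python 3.11.15, numpy 2.4.6, pandas 2.3.3 and scipy 1.17.1 were used.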

Additional observations from a re-analysis of the deposited data

How the results depend on the processing

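No paired analysis was possible because each group has 1 library, and for the same reason no replicate could be left out. Of the cilium genes, 0 were at least 2-fold higher under each of 9 other settings. The number at least 2-fold lower is given here with the share of all measured genes in brackets. It was 14 of 29 as reported (15.3%), 5 of 29 with a pseudocount of 5 (8.28%) and 3 of 29 at a 4-fold threshold (5.89%). It was 9 of 19 at a mean TPM of at least 5 (12.9%) and 9 of 29 after quantile normalization (11.8%). It was 15 of 33 for ratio intervals wholly below 0.5 (15.7% of all genes with recovered reads), a setting chosen after seeing the data. With a pseudocount of 5 the median difference was −0.58 over all, −0.69 for Ift, −0.38 for Bbs and −0.53 for Tctn. With a pseudocount of 0.1 it was −1.31 for Bbs and −1.34 for Tctn. After the median ratio it was −0.81 over all, −0.84 for Ift and −0.75 for Dync2, and after quantile normalization −0.69 over all, −0.82 for Ift, −0.47 for Bbs and −0.69 for Tctn. With no filter it was −0.79 for Dync2, where the added gene is low, and at a mean TPM of at least 5 it was −0.84 for Ift and −1.87 for Tctn, the latter from Tctn2 alone. Without chromosomes 2 and 4 it was −1.77 for Dync2, from 2 genes. The medians of Ift, Bbs, Tctn and Dync2 changed sign under none of these settings. Of 11228 measured genes, 930 were lower and 563 higher with a pseudocount of 5, and 661 and 267 at 4-fold. At a mean TPM of at least 5, 1091 of 8451 were lower. The medians of ciliogenesis initiation (−0.0247 with no filter, −0.00894 without mitochondrially encoded and the highest genes, −0.0797 without chromosomes 2 and 4), Hedgehog (0.0436) and factor genes (0.0824, both after quantile normalization) changed sign; the cause was not tested. Depth limits Nphp4, Bbs7 and Bbs12, whose knockout values rest on 12 to 27 reads.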
